A study of Mus musculus with 6 samples.

Results

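The 77 mitochondrial ribosomal protein genes of the embryonic mouse cardiac outflow tract (OFT) were described in 6 bulk RNA-Seq libraries. They are the protein-coding genes with symbols *Mrpl* or *Mrps* and a number whose counts summed to more than 5 over the libraries, out of 28157 genes that passed this filter and 28777 genes listed. GENCODE annotates 78 such symbols in mm10, and the remaining one, *Mrpl53*, was not analysed here. The lowest count of any of the 77 in any library was 129. The OFT is the vessel that leaves the embryonic heart and is divided into aorta and pulmonary artery. It was dissected at E13.5, in mid-gestation, with 3 OFTs pooled per library and 18 OFTs in all. The 3 libraries labelled mutant are *Notch1*+/-; *Nos3*-/-, heterozygous for a knockout of the receptor gene *Notch1* and homozygous for a knockout of the endothelial nitric oxide synthase gene *Nos3*, both in every cell and not in a single lineage. The 3 libraries labelled wildtype are littermates without either knockout, and all mice were kept on a C57/BL6J background. The comparison asks whether transcripts of the mitochondrial ribosome differ between these OFTs.

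Mitochondria make the core subunits of the respiratory chain on ribosomes of their own. The ribosomal RNAs of these mitoribosomes come from the mitochondrial genome, whereas all of their proteins are encoded in the nucleus, made in the cytoplasm and imported. Some of these proteins have bacterial counterparts and others occur in mitochondria and not in bacteria. Heart muscle depends on oxidative phosphorylation, and inherited defects of *MRPL3*, *MRPL44* and *MRPS22* are known causes of cardiomyopathy in patients. Here 50 genes encode proteins of the large subunit, including *Mrps30* and *Mrps18a*, whose products sit there despite their names, and 26 encode proteins of the small subunit. *Mrps36* is counted in neither, because its product belongs to the 2-oxoglutarate dehydrogenase complex. The 77 genes lie on 17 chromosomes. No gene of the mitochondrial genome is in the table, so the mitochondrial ribosomal RNAs have no values here.

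Depth lay between 34729103 and 44387490 counts per library. The labels were checked against the targeted genes. *Nos3* had 31.8, 47.2 and 48.1 CPM (counts scaled to library size) in wildtype replicates 1, 2 and 3 and 22.1, 22.0 and 20.4 CPM in the libraries labelled mutant, an adjusted p of 0.128 (quasi-likelihood test of edgeR, Benjamini-Hochberg adjusted). *Notch1* went against its label, at 74.3, 88.2 and 83.6 CPM under wildtype and 154.9, 160.5 and 139.4 CPM under mutant (log2 fold change 0.89, adjusted p = 0.0313 by the same test). The groups are therefore named by their labels. Wildtype replicate 1 stood apart from the other wildtype libraries in most values below. The titles and descriptions of wildtype replicates 2 and 3 give opposite library numbers, so these numbers are uncertain.

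Promoter sequences from 250 bases before to 50 bases after the annotated start were taken from RefSeq (GRCm38.p6, the patch release of mm10) for 68 of the 77 genes. Motifs of 3 factors known to act on promoters of this kind were searched on both strands, GCGCA followed by any base and GCGC for nuclear respiratory factor NRF1, CCGGAAG for the ETS family, which includes GABP, and AAGATGGCG for YY1. The NRF1 motif was found in 13 of the 68 promoters (19.1%, against 8.45% of 13167 protein-coding promoters of the same length), the ETS motif in 24 (35.3% against 15.0%) and the YY1 motif in 8 (11.8% against 2.53%). At least 1 of the 3 was present in 39 promoters (57.4% against 23.5%). An E-box, CACGTG, was found in 5 (7.35% against 9.27%) and the letters TATAAA in 4 (5.88% against 8.61%). Median GC content of the promoters was 58.2% for the members and 59.7% for all protein-coding genes. Of the 10 genes with the smallest unadjusted p 6 had a matched promoter with at least 1 of the first 3 motifs, and these are shown 5′ to 3′ in the direction of the gene, with the matches in capitals.
*Mrpl12*, chr11:120484387-120484686, plus strand: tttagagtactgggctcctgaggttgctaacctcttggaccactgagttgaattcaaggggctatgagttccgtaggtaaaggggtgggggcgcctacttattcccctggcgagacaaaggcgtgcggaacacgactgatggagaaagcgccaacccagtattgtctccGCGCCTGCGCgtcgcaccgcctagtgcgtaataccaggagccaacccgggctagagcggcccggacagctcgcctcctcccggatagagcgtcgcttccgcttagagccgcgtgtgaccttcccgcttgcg
*Mrps21*, chr3:95871465-95871764, minus strand: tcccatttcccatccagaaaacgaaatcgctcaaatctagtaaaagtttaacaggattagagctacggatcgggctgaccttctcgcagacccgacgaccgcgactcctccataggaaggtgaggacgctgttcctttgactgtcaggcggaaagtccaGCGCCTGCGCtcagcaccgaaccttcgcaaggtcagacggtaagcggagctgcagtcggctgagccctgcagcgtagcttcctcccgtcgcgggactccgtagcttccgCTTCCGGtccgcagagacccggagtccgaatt
*Mrpl42*, chr10:95501900-95502199, minus strand: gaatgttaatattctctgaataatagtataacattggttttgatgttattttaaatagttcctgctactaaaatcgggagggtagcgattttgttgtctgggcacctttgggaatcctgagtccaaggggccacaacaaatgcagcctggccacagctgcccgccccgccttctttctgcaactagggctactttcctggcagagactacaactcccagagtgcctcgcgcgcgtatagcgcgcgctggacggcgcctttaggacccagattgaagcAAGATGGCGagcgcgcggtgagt
*Mrpl36*, chr13:73330759-73331058, plus strand: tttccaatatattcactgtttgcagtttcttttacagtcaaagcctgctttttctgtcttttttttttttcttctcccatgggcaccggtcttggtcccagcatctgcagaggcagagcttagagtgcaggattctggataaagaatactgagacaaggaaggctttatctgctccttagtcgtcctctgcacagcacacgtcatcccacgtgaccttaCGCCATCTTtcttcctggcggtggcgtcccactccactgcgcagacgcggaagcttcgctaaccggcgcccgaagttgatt
*Mrpl33*, chr5:31613701-31614000, plus strand: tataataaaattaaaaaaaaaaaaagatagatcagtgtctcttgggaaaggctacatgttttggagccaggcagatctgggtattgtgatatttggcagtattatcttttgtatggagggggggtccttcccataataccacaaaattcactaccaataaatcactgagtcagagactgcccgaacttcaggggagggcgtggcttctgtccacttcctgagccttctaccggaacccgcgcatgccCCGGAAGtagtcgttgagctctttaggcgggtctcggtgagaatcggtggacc
*Mrps33*, chr6:39810887-39811186, minus strand: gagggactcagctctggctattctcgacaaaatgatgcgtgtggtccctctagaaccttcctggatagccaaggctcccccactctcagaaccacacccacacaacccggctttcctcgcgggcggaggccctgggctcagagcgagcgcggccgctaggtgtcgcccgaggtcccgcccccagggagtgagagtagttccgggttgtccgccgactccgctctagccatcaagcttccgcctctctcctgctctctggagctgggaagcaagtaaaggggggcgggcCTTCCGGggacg
Counted from the annotated start, the NRF1 match began at base −81 in *Mrpl12* and at −91 in *Mrps21*, which also had an ETS match at 19. The YY1 match began at base 28 in *Mrpl42*, after the start, and at −31 in *Mrpl36*. The ETS match began at −3 in *Mrpl33* and at 39 in *Mrps33*. All matches shown in *Mrpl12*, *Mrps21*, *Mrpl36* and *Mrps33* lie on the other strand, so the capitals there are the reverse complement of the motif. A match describes these letters and is not evidence that a factor binds there.

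Of the 77 genes, 76 had a lower fitted level in the libraries labelled mutant, by small amounts, and 0 passed the test. The log2 fold changes, mutant minus wildtype, had a median of −0.29, with quartiles of −0.36 and −0.21, while the median over all 28157 genes was 0.011 and 48.8% of all genes had a fold change below 0. They ran from −0.63 for *Mrpl42* to 0.10 for *Mrps10*, the single gene above 0, with a median standard error (SE) of 0.124. The quasi-likelihood test of edgeR, Benjamini-Hochberg adjusted over all genes, called 0 of the 77 and 6 of 28157 genes (0.0213%) at the 0.05 threshold, and the adjusted p of the members lay between 0.181 and 0.906. At an unadjusted p under 0.05, 47 members (61.0%) had a lower level and 0 a higher one, where 7.83% of all genes had a lower level at that threshold, or 11.9% of the 16655 genes whose mean reached 1 CPM. For 31 members (40.3%) every library labelled mutant was below every wildtype library, against 8.94% of all genes and 12.8% of those with at least 1 CPM. By other tests of the same counts, DESeq2's Wald test called 6 members, all lower, where it called 1.2% of all genes lower, and limma-voom called 0 (0.0178% of all genes), with 38 at an unadjusted p under 0.05 and a lower level (7.21% of all genes). In bulk tissue, fewer cells of a type and less RNA per cell cannot be told apart.

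**Figure D1:**
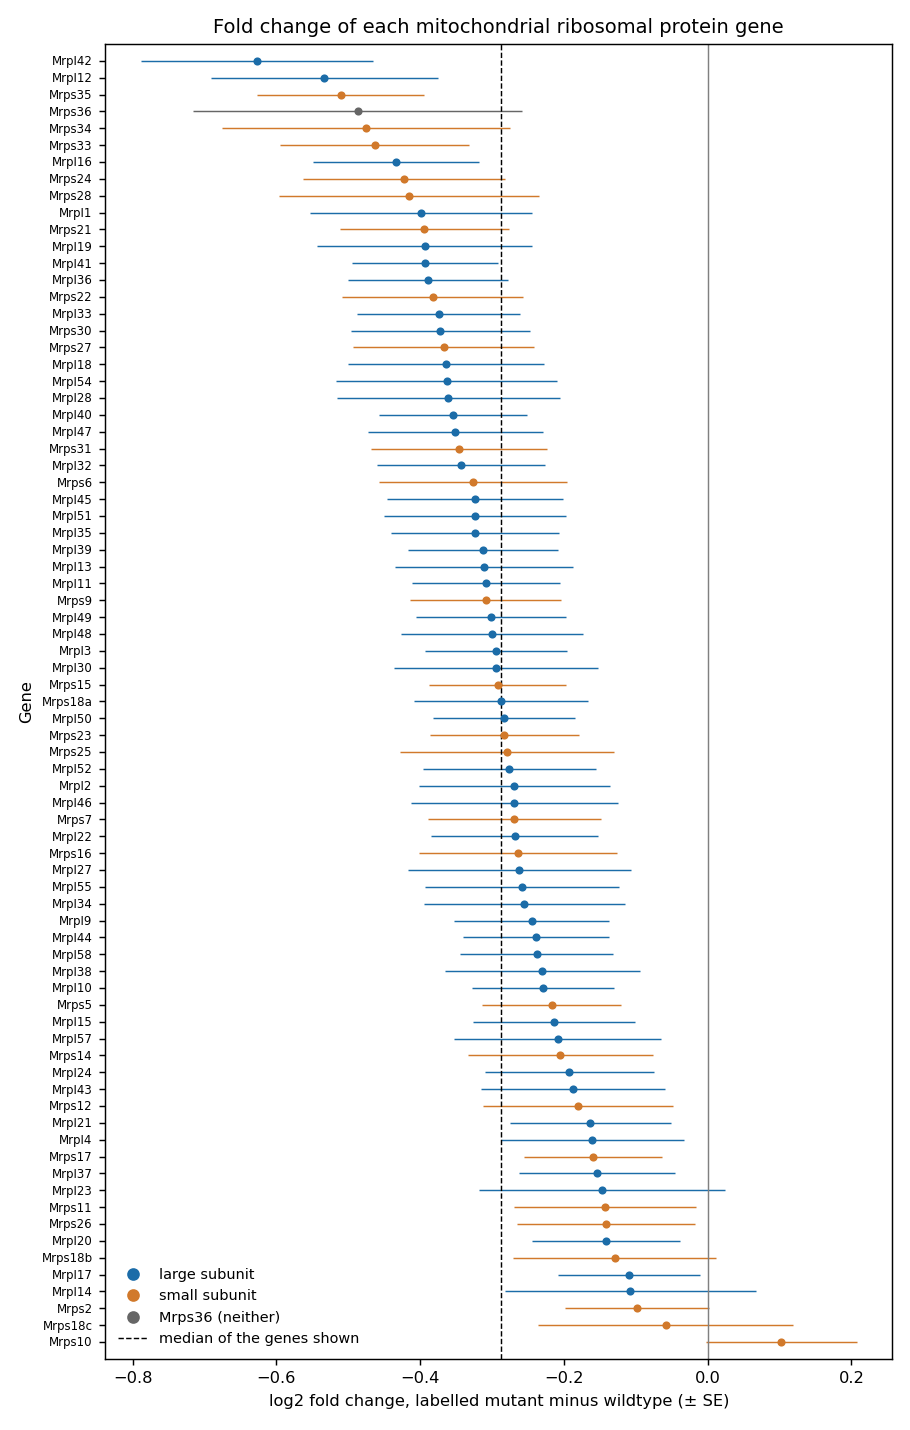
Log2 fold change (x axis, libraries labelled mutant minus wildtype, with SE) of each of the 77 genes (y axis), ordered by size and coloured by subunit. All large subunit genes lie below 0, *Mrps10* alone lies above 0, and the dashed line marks the median of the 77 genes at −0.29.

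The 77 genes had their lowest values in the libraries labelled mutant and in wildtype replicate 1. Their summed level was 2753, 3270 and 3483 CPM in wildtype replicates 1, 2 and 3 (3169 ± 375, SD, n = 3) and 2589, 2411 and 2748 CPM in mutant replicates 1, 2 and 3 (2583 ± 169, SD, n = 3). In this sum wildtype replicate 1 lay next to the highest mutant library. The highest value of a gene was in wildtype replicate 3 for 57 genes and in wildtype replicate 2 for 18, and the lowest was in mutant replicate 2 for 51 and in wildtype replicate 1 for 15. Wildtype replicates 2 and 3 were both above every mutant library for 71 of 77 genes, a pattern that 20.7% of all genes had, whereas wildtype replicate 1 was below the highest mutant library for 43. Without wildtype replicate 1 the median log2 fold change was −0.39 and edgeR's test called 32 members, all lower, where 5.3% of all genes tested were called lower. With any other single library left out, 0 members were called.

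**Figure D2:**
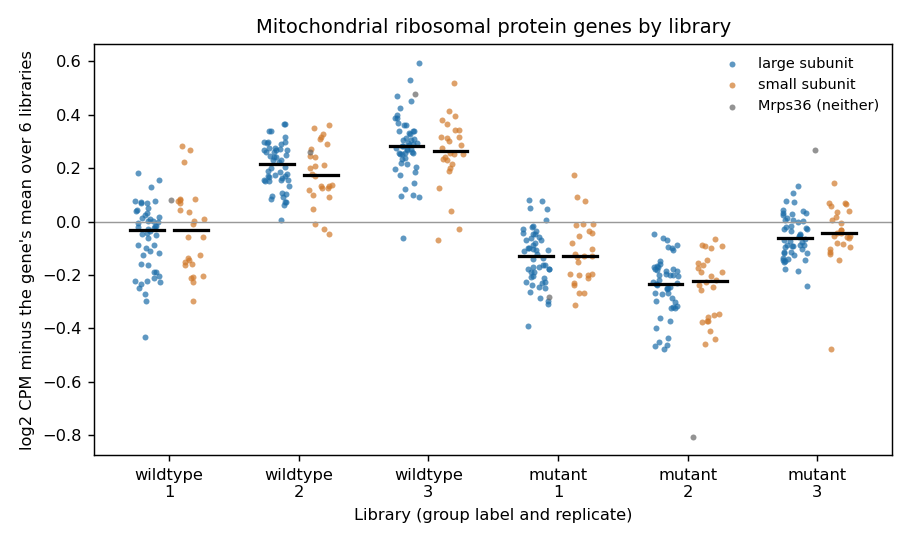
Each point is 1 gene in 1 library (x axis, group label and replicate), as log2 CPM minus the mean of that gene over the 6 libraries (y axis), coloured by subunit, with a black bar at the median of each subunit. Both subunits sit near the same height within each library, with medians over all 77 genes of −0.03, 0.20 and 0.28 in wildtype replicates 1 to 3 and −0.13, −0.23 and −0.05 in the libraries labelled mutant.

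Markers of heart muscle had their lower values in the same group. The 13 myocardial marker genes summed to between 31011 and 43943 CPM in the wildtype libraries and between 21935 and 30424 CPM in the libraries labelled mutant. All 13 had a fold change below 0 (median −0.52), and none was at 0 in any library. An unadjusted p under 0.05 was reached by 10, where 7.83% of all genes had a lower level, and edgeR called 0. The 8 markers of mesenchyme went the other way, with a median log2 fold change of 0.58 and a summed level of 3330 to 6552 CPM under wildtype and 6206 to 8138 CPM under mutant. The 8 blood markers had a median of −0.56, with sums of 3782 to 8521 CPM under wildtype and 4409 to 4512 CPM under mutant. Their median log2 deviations from each gene's mean were −0.29, 0.65 and 0.46 in wildtype replicates 1 to 3 and −0.28, −0.23 and −0.16 under mutant. Those of 5 liver genes were −2.05, 3.20 and 1.64 against −0.73, 0.02 and −1.50. Blood and liver transcripts were thus highest in wildtype replicates 2 and 3. The myocardial markers had 0.02, 0.13 and 0.56 against −0.24, −0.47 and −0.04. With the mean log2 CPM of the myocardial markers as a covariate, the median of the 77 genes was −0.11, 64 had a fold change below 0, 4 had an unadjusted p under 0.05 and a lower level (2.47% of all genes), and 0 were called. This covariate was 10.45, 10.56 and 11.05 in wildtype replicates 1 to 3 and 10.17, 9.83 and 10.55 in the libraries labelled mutant. It followed the group label in part, so this fit cannot separate heart muscle from the label. The part of heart muscle, blood and mesenchyme in the result was not tested.

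The large and the small subunit had like values. All 50 large subunit genes had a fold change below 0, with a median of −0.29. Of these, 32 had an unadjusted p under 0.05 and 19 had groups that did not overlap. Over all genes, 7.83% had a lower level at that threshold and 8.94% a lower level without overlap. For genes with at least 1 CPM the shares were 11.9% and 12.8%. In the small subunit 25 of 26 genes were below 0, with a median of −0.28, of which 15 had an unadjusted p under 0.05 and 12 had groups that did not overlap. The ratio of the small to the large subunit, taken from summed CPM per kb of exon, was 0.420, 0.406 and 0.411 in the wildtype libraries (0.412 ± 0.00671, SD, n = 3). In the libraries labelled mutant it was 0.395, 0.406 and 0.418 (0.406 ± 0.0113, SD, n = 3), so the groups overlapped.

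Within the large subunit, the stalk recruits translation factors to the ribosome. Its 3 genes, *Mrpl10*, *Mrpl11* and *Mrpl12*, had fold changes from −0.53 to −0.23. *Mrpl12*, which encodes the flexible stalk protein and is also known to bind the mitochondrial RNA polymerase, had 38.1, 53.3 and 59.6 CPM in the wildtype libraries and 34.8, 30.5 and 38.9 CPM in the libraries labelled mutant. Wildtype replicate 1 was below mutant replicate 3, so the groups overlapped, and the log2 fold change was −0.53 ± 0.158 (SE) with an adjusted p of 0.200 by edgeR's quasi-likelihood test. Of its exon length, 13.1% is shared with a gene on the other strand. *Mrpl10*, the anchor of the stalk, had 41.7, 43.0 and 49.3 CPM under wildtype and 37.4, 39.5 and 37.5 CPM under mutant, without overlap, and a log2 fold change of −0.23 ± 0.0984 (SE).

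The central protuberance, which faces the small subunit, is represented by 6 genes, all with a fold change below 0 (median −0.28). An unadjusted p under 0.05 was reached by 4, where 7.83% of all genes had a lower level. *Mrpl40*, a protein without a bacterial counterpart, had 40.4, 49.4 and 47.5 CPM in the wildtype libraries and 34.5, 35.9 and 37.0 CPM in the libraries labelled mutant. Its groups did not overlap (log2 fold change −0.35 ± 0.103, SE). *Mrpl58* encodes a peptidyl-tRNA hydrolase that frees stalled chains and is also built into the ribosome, and had 36.7, 46.4 and 40.4 CPM under wildtype and 35.6, 34.2 and 34.98 CPM under mutant, again without overlap. *Mrpl48* had 18.8, 23.7 and 24.9 CPM against 18.0, 17.2 and 19.5 CPM, and these groups overlapped. A pseudogene is named for *Mrpl48*, and another for *Mrpl23*, described next, so reads of both may be shared.

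Around the exit of the nascent chain 6 genes were measured, all below 0 (median −0.23). An unadjusted p under 0.05 was reached by 3, where 7.83% of all genes had a lower level. *Mrpl45*, whose product fastens the ribosome to the inner membrane, had 48.7, 54.2 and 61.6 CPM in the wildtype libraries and 42.2, 39.1 and 50.1 CPM in the libraries labelled mutant (log2 fold change −0.32 ± 0.123, SE), and mutant replicate 3 was above wildtype replicate 1. *Mrpl23* had 7.85, 10.2 and 12.7 CPM under wildtype and 9.25, 9.04 and 9.47 CPM under mutant. Wildtype replicate 1 was the lowest of all 6 libraries for *Mrpl23*, and its fold change of −0.15 ± 0.171 (SE) was 0.12 with the myocardial covariate and 0.034 without wildtype replicate 3.

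Of the other large subunit genes, 5 were among the 10 with the smallest p. *Mrpl42*, a protein without a bacterial counterpart, had 58.0, 76.5 and 89.7 CPM in the wildtype libraries and 45.3, 42.7 and 57.1 CPM in the libraries labelled mutant. The groups were separated by less than 1 CPM, between wildtype replicate 1 and mutant replicate 3, and the log2 fold change was −0.63 ± 0.161 (SE, adjusted p = 0.191 by edgeR's quasi-likelihood test). *Mrpl16*, a protein near the tRNA sites, had 38.1, 44.5 and 48.3 CPM against 33.2, 29.1 and 34.5 CPM (log2 fold change −0.43 ± 0.116, SE). *Mrpl41* had 32.5, 37.4 and 38.7 CPM under wildtype and 27.6, 26.5 and 28.5 CPM under mutant, a narrow range in the second group (log2 fold change −0.39 ± 0.101, SE). *Mrpl36* had 44.4, 54.6 and 54.0 CPM against 41.3, 35.5 and 40.0 CPM, without overlap. *Mrpl33* had 23.9, 28.2 and 28.04 CPM against 19.2, 19.8 and 22.8 CPM, also without overlap. *Mrpl36* and *Mrpl33* encode some of the smallest proteins of the ribosome.

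*Mrpl3*, *Mrpl44* and *Mrps22*, the genes named above for cardiomyopathy, had log2 fold changes of −0.30 ± 0.0989, −0.24 ± 0.101 and −0.38 ± 0.126 (SE). *Mrpl3*, which reaches toward the peptidyl transferase centre, had 62.0, 64.7 and 69.5 CPM in the wildtype libraries and 52.1, 49.5 and 58.3 CPM in the libraries labelled mutant. *Mrpl44*, related to the RNase III family, had 25.6, 29.4 and 28.2 CPM against 25.01, 22.4 and 23.0 CPM. Neither of these overlapped between groups. *Mrps22*, a small subunit protein without a bacterial counterpart, had 29.9, 36.3 and 37.5 CPM against 26.3, 23.2 and 30.0 CPM and overlapped through wildtype replicate 1 and mutant replicate 3.

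In the small subunit, *Mrps35* had the smallest p of all 77 genes. It had 49.7, 44.7 and 52.7 CPM in the wildtype libraries and 33.0, 30.8 and 39.4 CPM in the libraries labelled mutant, so that wildtype replicate 1 was not low for this gene. The log2 fold change was −0.51 ± 0.116 (SE) with an adjusted p of 0.181 by edgeR's quasi-likelihood test. *Mrps33* had 37.9, 45.9 and 46.7 CPM against 30.6, 27.1 and 36.9 CPM (log2 fold change −0.46 ± 0.131, SE), and *Mrps21* had 58.8, 74.9 and 77.6 CPM against 51.9, 51.9 and 56.9 CPM (log2 fold change −0.39 ± 0.117, SE). Neither overlapped. For each of these, as for every gene whose groups did not overlap, the two-sided exact permutation test of log2 CPM gave p = 0.1, the smallest that 3 libraries against 3 allow.

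**Figure D3:**
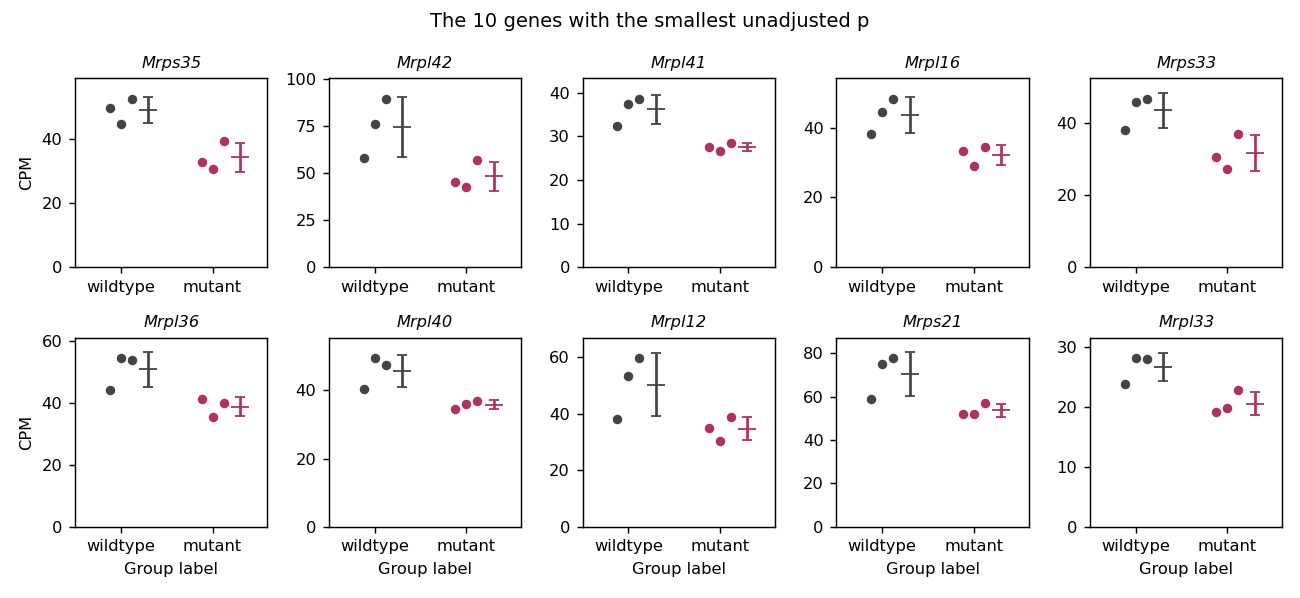
CPM (y axis, from 0) of the 10 genes with the smallest unadjusted p in the 3 wildtype libraries (grey points) and the 3 labelled mutant (red points), with mean and SD beside them. *Mrpl12* is the gene in which wildtype replicate 1 lies below a library labelled mutant, and in the other 9 the groups do not overlap.

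*Mrps12*, a protein of the decoding centre, had 22.4, 30.1 and 31.7 CPM in the wildtype libraries and 25.9, 24.6 and 23.7 CPM in the libraries labelled mutant. Wildtype replicate 1 was the lowest of the 6, and the log2 fold change was −0.18 ± 0.132 (SE). *Mrps34*, a protein needed for a stable small subunit, had 5.56, 5.90 and 5.61 CPM against 5.37, 3.47 and 3.42 CPM (log2 fold change −0.48 ± 0.201, SE). The exon overlaps of *Mrps34* with *Nme3* on the same strand and *Mapk8ip3* on the other add up to at least its exon length. Bases shared with both would be counted in each, and the counts of *Mrps34* are uncertain. *Mrps10*, the gene above 0, had 22.0, 24.2 and 25.3 CPM under wildtype and 25.96, 23.5 and 27.2 CPM under mutant (log2 fold change 0.10 ± 0.105, SE, adjusted p = 0.669 by edgeR's test), and its groups overlapped.

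The *Mrps18* genes form a family of 3, all related to one bacterial protein. *Mrps18a*, in the large subunit, had 31.2, 39.3 and 40.1 CPM in the wildtype libraries and 31.7, 27.2 and 31.7 CPM in the libraries labelled mutant (log2 fold change −0.29 ± 0.121, SE). *Mrps18b* had 11.99, 9.90 and 9.49 CPM against 9.60, 8.75 and 10.4 CPM, and is the single gene of the 77 with its highest value in wildtype replicate 1. *Mrps18c* had 4.41, 5.68 and 4.71 CPM against 5.12, 4.06 and 5.04 CPM. Its log2 fold change of −0.06 ± 0.177 (SE) turned to 0.05 when libraries were scaled by size only and to 0.12 when GC content and length were corrected for. All 3 overlapped between groups. *Mrps30*, the other large subunit gene with a small subunit name, had 24.5, 24.8 and 30.4 CPM against 21.7, 18.0 and 21.9 CPM, without overlap (log2 fold change −0.37 ± 0.125, SE). *Mrps36* had 12.6, 14.3 and 16.6 CPM against 9.82, 6.83 and 14.4 CPM, with mutant replicate 3 above wildtype replicates 1 and 2. Its fold change of −0.49 ± 0.228 (SE) was 0.000385 with the myocardial covariate, and 3 pseudogenes are named for it.

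Within 10 Mb of the targeted genes lay 3 members. *Mrpl33*, described above, lies 7.21 Mb from *Nos3*. *Mrpl41* lies 1.48 Mb and *Mrps2* 1.95 Mb from *Notch1*. *Mrps2* had 37.7, 34.7 and 39.2 CPM in the wildtype libraries and 35.7, 31.8 and 36.8 CPM in the libraries labelled mutant. Its groups overlapped, and the log2 fold change of −0.10 ± 0.1001 (SE) turned to 0.005 when libraries were scaled by size only and to 0.016 with the myocardial covariate.

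Levels of the 77 genes were compared per length, as mean CPM per kb of merged exon length over the 6 libraries. They spanned 44.4-fold, with a median of 13.3 CPM per kb against 5.55 for protein-coding genes with at least 1 CPM. The highest were *Mrpl27* at 88.7 ± 17.01, *Mrps21* at 83.9 ± 15.4, *Mrpl54* at 71.5 ± 15.7 and *Mrpl34* at 57.2 ± 9.66 CPM per kb (SD, n = 6 libraries). This SD includes the difference between the groups, and the order was not tested. The lowest were *Mrpl23* at 1.999 ± 0.337, *Mrps34* at 2.37 ± 0.548, *Mrpl48* at 2.50 ± 0.390 and *Mrps10* at 3.06 ± 0.229 CPM per kb. *Mrpl27* and *Mrpl54* had log2 fold changes of −0.26 ± 0.155 and −0.36 ± 0.154, and *Mrpl34* of −0.25 ± 0.139 (SE), and all 3 overlapped between groups. *Mrpl27* had 71.3, 104.0 and 110.6 CPM under wildtype and 88.8, 76.7 and 72.8 CPM under mutant, with wildtype replicate 1 the lowest library. Merged exon length counts every annotated transcript, so a gene with a rare long transcript has a low level on this scale. The median merged exon length was 2533 bp for the members and 4135 bp for the 17138 protein-coding genes tested, at a GC content of 49.7% in both. With a correction of each library for both properties the median log2 fold change was −0.26 and 75 genes remained below 0.

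Many of these genes share a promoter region with a gene on the opposite strand. A protein-coding neighbour that starts head to head, at most 1000 bp away or overlapping by at most 200 bp, was found for 23 of the 77 genes (29.9%) and for 9.52% of protein-coding genes. In these 23 pairs the mitoribosomal genes had a median log2 fold change of −0.27, while the neighbours had a median of 0.04, with 10 below 0 and 13 above. Of the neighbours, 3 had an unadjusted p under 0.05 with a lower level and 2 with a higher one (7.83% and 8.23% of all genes). The mitoribosomal gene had the lower fold change in 21 of the 23 pairs. *Mrps7* and *Gga3*, which encodes a sorting adaptor of the Golgi, had log2 fold changes of −0.27 and 0.35. *Mrpl54* and *Apba3* had −0.36 and 0.16. The exceptions were *Mrpl36* with *Ndufs6*, a complex I subunit gene with a log2 fold change of −0.59, and *Mrpl57* with *Ska3*, at −0.21 and −0.30. These pairs were chosen after their values were seen, and without known strand in the counting, reads of overlapping first exons may be shared. Starts of the pairs are those of GENCODE genes. For *Mrpl36* that start, base 73328513 of chromosome 13, lies outside the RefSeq promoter window printed above. The GENCODE start of *Mrpl33*, base 31596935 of chromosome 5, also lies outside its printed window.

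Other genes of mitochondrial translation and its upkeep had list medians from −0.26 to 0.001, and edgeR's test called 0 genes in each list that follows. For the counts at an unadjusted p under 0.05, the shares over all genes were 7.83% with a lower level and 8.23% with a higher one. Of 5 mitoribosomal proteins with other symbols, 5 were below 0 (median −0.26), with 1 at an unadjusted p under 0.05. Without wildtype replicate 1 their median was −0.43 and 3 were called, against 9.45% of all genes tested. *Chchd1* had a log2 fold change of −0.40 and *Ptcd3* of −0.26, both with overlapping groups. Of 30 assembly factors and enzymes that modify the mitochondrial ribosomal RNA, 24 were below 0 (median −0.18), with 7 at an unadjusted p under 0.05 and a lower level and 0 with a higher one. *C1qbp*, a matrix protein needed for mitochondrial translation, had 99.7, 107.9 and 137.9 CPM in the wildtype libraries and 85.7, 72.1 and 96.6 CPM in the libraries labelled mutant (log2 fold change −0.44 ± 0.143, SE), and *Mettl15*, a methyltransferase of the small subunit RNA, had a log2 fold change of −0.42. Of 18 translation factors and mRNA handling proteins, 15 were below 0 (median −0.12), with 3 at an unadjusted p under 0.05. *Gfm1*, the elongation factor that moves the ribosome along the mRNA, had 130.6, 119.4 and 152.4 CPM against 92.1, 84.4 and 117.1 CPM (log2 fold change −0.45 ± 0.138, SE), and *Taco1*, an activator of cytochrome oxidase translation, had −0.40.

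Of 20 mitochondrial tRNA synthetase genes, 16 were below 0 (median −0.11) and 6 had an unadjusted p under 0.05, all with a lower level. *Gatb*, of the amidotransferase that makes glutaminyl-tRNA, had 29.1, 33.1 and 41.9 CPM under wildtype and 23.9, 24.9 and 29.02 CPM under mutant (log2 fold change −0.42 ± 0.141, SE), with the lowest wildtype library just above the highest labelled mutant. Of 14 genes of mitochondrial DNA transcription and replication, 11 were below 0 (median −0.11), with 1 at an unadjusted p under 0.05 in each direction. *Polg2*, the accessory subunit of the mitochondrial DNA polymerase, had 5.44, 6.12 and 5.64 CPM under wildtype and 7.37, 10.5 and 9.02 CPM under mutant, so every library labelled mutant was higher (log2 fold change 0.65 ± 0.163, SE). *Tefm*, the elongation factor of mitochondrial transcription, had a log2 fold change of −0.36. Of 10 nuclear regulators of mitochondrial genes, 5 were below and 5 above 0, and their median of 0.001 changed sign between settings. *Pprc1*, a coactivator of the PGC family, had 55.0, 51.3 and 50.8 CPM against 69.4, 68.5 and 63.0 CPM, without overlap (log2 fold change 0.35 ± 0.0910, SE). *Ppargc1a*, the founding member of that family, had 77.1, 74.5 and 89.9 CPM against 60.1, 55.5 and 75.2 CPM, which overlapped (log2 fold change −0.34 ± 0.128, SE).

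The nuclear subunits of oxidative phosphorylation and the proteins of the cytoplasmic ribosome were set beside the mitoribosome. Of 84 subunit genes of oxidative phosphorylation, 82 were below 0 (median −0.49), 74 of them and 2 above 0 at an unadjusted p under 0.05, and the groups did not overlap for 18 below 0 and 1 above. *Cox7c*, a cytochrome oxidase subunit, had 124.4, 190.7 and 183.5 CPM in the wildtype libraries and 83.7, 73.2 and 120.0 CPM in the libraries labelled mutant (log2 fold change −0.85 ± 0.198, SE). Of 82 cytoplasmic ribosomal protein genes, 79 were below 0 (median −0.22), with 13 at an unadjusted p under 0.05 and 5 without overlap. Of all genes, 7.83% had a lower level at that threshold and 8.94% had a lower level without overlap. Among genes with at least 1 CPM these shares were 11.9% and 12.8%. The 5 without overlap were a smaller share of their list than either. Without wildtype replicate 1 edgeR's test called 52 of the 82 (median −0.36) and 76 of the 84 (median −0.65), against 9.45% of all genes tested. The 82 genes had their lowest median in wildtype replicate 1, below all libraries labelled mutant, whereas the 77 mitoribosomal genes had theirs in mutant replicate 2. The 3 lists come from the same libraries, and the differences between them were not tested.

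**Figure D4:**
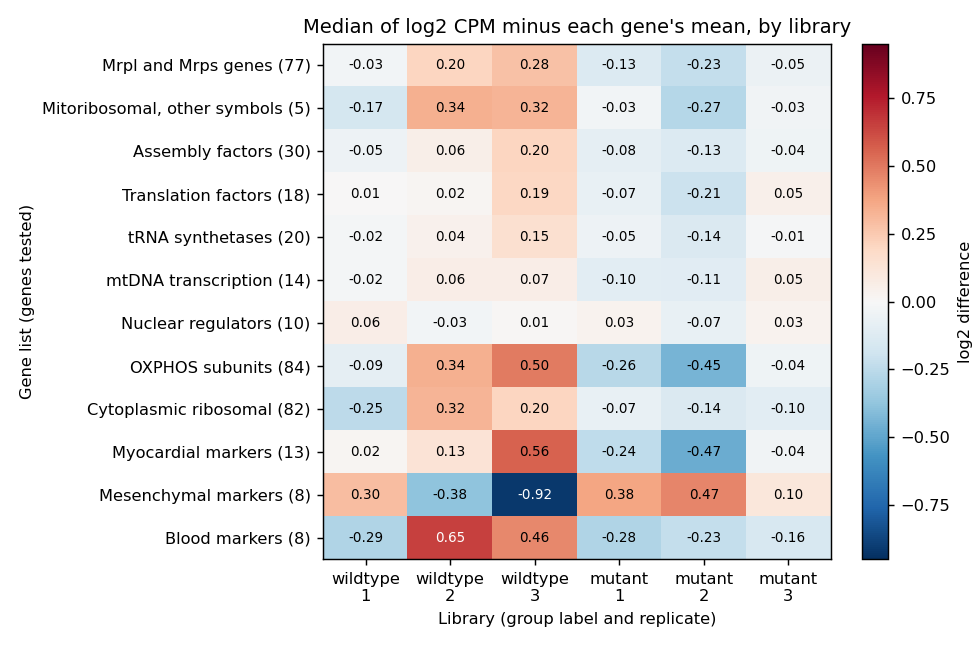
Each cell gives the median, over the genes of a list (y axis, with the number tested), of log2 CPM minus the mean of each gene over the 6 libraries, in 1 library (x axis). The mitoribosomal genes run from −0.23 to 0.28, the oxidative phosphorylation genes from −0.45 to 0.50, and the mesenchymal markers have the opposite sign in every library.

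The median fold change of the 77 genes stayed below 0 in every setting tried. Scaling by library size only gave −0.18, with 73 genes below 0 and 14 of them at an unadjusted p under 0.05 (3.51% of all genes). The same scaling put the median of all genes at 0.11, so that the distance between members and all genes was −0.29 there and −0.30 with TMM. Among the 77 genes, 32 share exon sequence with another gene. In 17 of them the overlaps, added up over the other genes, came to more than 10% of exon length. Without these 17, 59 of the remaining 60 genes were below 0 and the median was −0.29.

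**Figure D5:**
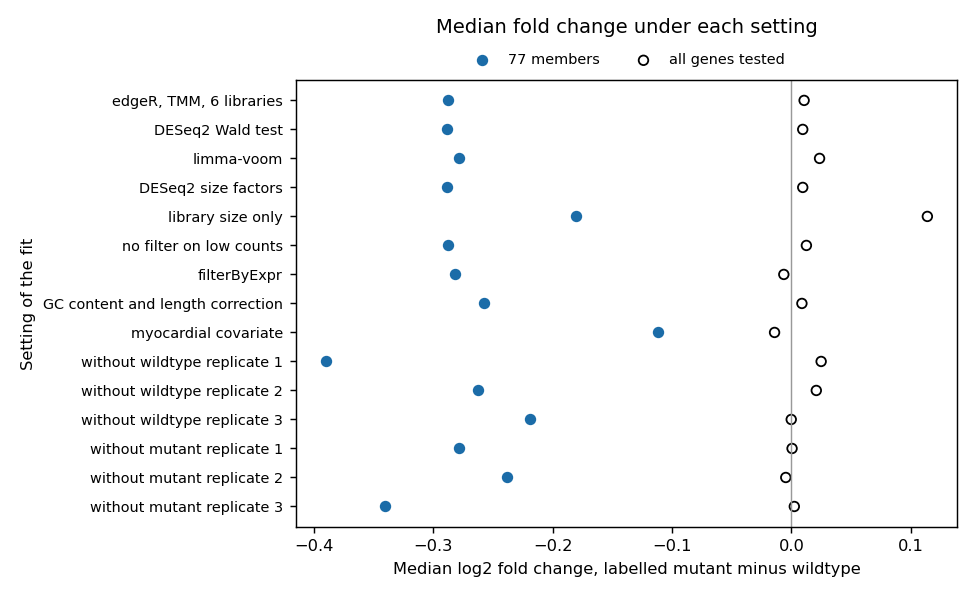
Median log2 fold change (x axis, mutant minus wildtype) of the 77 members (filled) and of all genes tested (open) under each setting of the fit without a replicate block (y axis). The members lie between −0.39 without wildtype replicate 1 and −0.11 with the myocardial covariate, and all genes tested lie near 0 except at 0.11 when libraries were scaled by size only.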

How the data were processed

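RNA-Seq counts of the E13.5 OFT were analysed in 6 libraries, 3 labelled mutant and 3 wildtype. The authors sequenced total RNA with a stranded, rRNA-depleting kit, aligned the reads to mm10 with TopHat2 2.1.0 (version from the submitters' processing notes) and summed reads over exons by GenomicAlignments. The deposited values are raw whole-number counts per gene. The annotation release and the strand setting of the counting are not given in the sources used here, so values of genes that overlap others are uncertain. Libraries are separate pools of embryos.

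Software was DESeq2 1.42.0, limma 3.58.1 and edgeR 4.0.16 under R 4.3.3. The 28157 genes with a summed count above 5 were scaled by TMM, and edgeR's quasi-likelihood test was run on the group label alone, with Benjamini-Hochberg adjustment over all of them and a call at an adjusted p of at most 0.05. CPM values are scaled by TMM. Log2 fold changes are mutant minus wildtype, ± SE. Single genes were also compared by exact permutation, two-sided, on log2(CPM + 0.5). Depth was 34729103 to 44387490 counts per library. Errors reflect counting and differences between libraries, which include differences between embryos and dissections. Symbols, types, positions, exon lengths and GC content came from GENCODE, which holds 28723 of the 28777 identifiers. Code was tested on simulated data with known changes. Most of these runs had less spread between libraries than was fitted here, so they do not show what the tests can find here. Samples were grouped by their labels.

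Genes named with values were the 10 members with the smallest p, the 4 with the highest and 4 with the lowest CPM per kb, those within 10 Mb of *Nos3* or *Notch1*, 15 chosen by role, 30 in all, and the 2 genes of smallest p in each further list, of which 1 is not reported here. *Mrpl11*, *Mrpl57*, *Mrps7* and the head-to-head neighbours were named after their values were seen. The members and lists were chosen with earlier results of these data known. Of the marker lists, Endothelial, VSMC, Epicardial, Neural crest and glia, Neuronal, Macrophage and Endoderm had median log2 fold changes from −0.20 to 0.37, and 5 Liver genes of −2.55, with sums of 2.002 to 91.9 CPM under wildtype and 1.56 to 5.84 CPM under mutant. Alternatives were limma-voom, the Wald test of DESeq2, its size factors in edgeR, library size alone as scaling, filterByExpr or no filter on low counts, an adjusted p of at most 0.01, a replicate block, a GC content and length correction, both together, a myocardial covariate and each library left out in turn. The restriction to members with little exon overlap, and the counts of members below 0 and at an unadjusted p under 0.05 under each setting, were added after seeing the data.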

Additional observations from a re-analysis of the deposited data

How the results depend on the processing

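The members called, 0 with edgeR and 6 libraries, numbered 6 with DESeq2 and 0 to 32 when each library was left out in turn, with 32 without wildtype replicate 1. Calls in the other lists numbered 0, 40 with DESeq2 and 0 to 140 with a library left out. All genes called numbered 6, against 749 with DESeq2 and 1 to 2593 with a library left out. With limma-voom, DESeq2's size factors, library size only, no filter, filterByExpr, the GC content and length correction, the myocardial covariate or an adjusted p of at most 0.01, 0 members were called. Members with a lower level at an unadjusted p under 0.05 numbered 47 (7.83% of all genes). They numbered 14 with library size only (3.51%) and 4 with the myocardial covariate (2.47%). With a library left out they numbered 14 to 68. The 68 was without wildtype replicate 1, where 2593 genes in all were called at the adjusted threshold. Of the 77, 64 to 76 were below 0 in every setting.

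With the myocardial covariate the median log2 fold changes were −0.11 for all members, −0.12 for the large subunit, −0.10 for the small subunit, −0.039 for assembly factors, −0.017 for tRNA synthetases, −0.031 for mitochondrial DNA transcription, −0.17 for oxidative phosphorylation, −0.10 for cytoplasmic ribosomal proteins, −0.039 for mitoribosomal proteins with other symbols, −0.014 for translation factors and −0.0075 for nuclear regulators. With library size only they were −0.070 for assembly factors, −0.0072 for tRNA synthetases, −0.0028 for mitochondrial DNA transcription and 0.11 for nuclear regulators. The mitochondrial DNA list ran from −0.18 to −0.087 with a library left out. The regulators, at 0.001, reversed to −0.00044 with DESeq2, −0.00028 with its size factors, −0.098 with the GC content and length correction, and ran from −0.059 to 0.014 with a library left out. Single genes reversed as well. *Mrpl23* was 0.12 with the covariate and ran from −0.31 to 0.034 with a library left out. *Mrps18c* was 0.045 with library size only, 0.12 with the correction, 0.037 with the covariate, and from −0.14 to 0.056 with a library left out. *Mrps2* was 0.0047 with library size only and 0.016 with the covariate, and *Mrps36* was 0.000385 with the covariate. The causes were not tested.

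The samples were not treated as paired by replicate number. Same-numbered libraries correlated in their deviations from the group means at 0.02, 0.04 and 0.12 over all genes and at 0.096, 0.16 and 0.42 over genes with at least 1 CPM, so not every pair was over 0.1, and wildtype replicate 1 correlated best with mutant replicate 2. With a replicate block by titles, 10 members, 68 genes of the other lists and 1577 genes in all were called, and with the descriptions 0, 1 and 83. With the block and the GC content and length correction together the counts were 30, 93 and 2279. Under these 3 fits the regulators' median was −0.0017, −0.00065 and −0.10, and *Mrps18c* was 0.12 under the last. With 3 libraries a group the median SE of a member was 0.124, and the fold change farthest from 0 was −0.63.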
